A study of Arabidopsis thaliana with 12 samples.

Results

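The AHL overexpressor SOB3-D of Arabidopsis thaliana was compared with the wild type Col-0, using the 3 SOB3-D and the 3 Col-0 libraries, 6 of the 12 RNA-seq libraries of the study. Each locus was read through 1 transcript, the one with the highest mean over all 12 libraries, and 18502 of 25089 loci in the files passed the filter of 1 ppm in at least 3 of the 12 libraries and were tested. By its title, the study is about AT-hook factors that restrain petiole growth against PIF4. Its other libraries, 3 each, were of sob3-6, a dominant-negative AHL line, and of the triple mutant pif4 pif5 pif7. SOB3-D and Col-0 plants shared the Columbia background and all conditions given in the labels. They were 14 days old, grown at 22 °C with 16 h of light and 8 h of darkness in 35 to 55 µmol of light, on a sucrose-free medium with 0.6% Gelzan, and harvested at ZT4, 4 h after lights on. Only the apical portion, severed within the hypocotyl, went into the RNA. SOB3-D is 1 dominant line with high SOB3 transcript, so a property of the line and an effect of SOB3 cannot be told apart from it alone.

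AHL proteins carry an AT-hook, which binds the minor groove of AT-rich DNA, and a second domain through which they bind each other and other transcription factors. SOB3 is known as an inhibitor of hypocotyl and petiole elongation in light-grown seedlings. PIFs are bHLH factors that promote elongation, in part through auxin synthesis and the small auxin-induced SAUR genes.

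Levels are in ppm, the authors' unit of reads scaled to library size and not to transcript length, and are given as mean ± SD over n = 3 libraries. By the size of 1 read in each library, Col-0 libraries held 14488308 to 16075498 reads and SOB3-D libraries 7637822 to 8877404, so that every SOB3-D library was shallower than every Col-0 library, and depth and genotype cannot be told apart except by thinning. Counting error alone permits as many as 3 reads, or 0.187 to 0.393 ppm by library, behind a listed 0. Changes are differences of log2(ppm + 1) between SOB3-D and Col-0, tested with limma, with Benjamini-Hochberg adjustment across the whole table of transcripts. Genes are called, and said to have risen or fallen, at an adjusted p under 0.05. The + 1 understates the change of genes near 1 ppm. Whether the replicates were grown apart is not in the labels, and the p-values then cover only the variation among these libraries. The 3 SOB3-D libraries did not overlap the 3 Col-0 libraries in any gene said below to have risen or fallen.

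The harvested organ was checked with marker genes. Summed levels of 8 mesophyll markers were 77040 to 79580 ppm in Col-0 and 78000 to 81380 ppm in SOB3-D, and 2 of them were called higher and 1 lower. Of 14 root markers in the files, 4 passed the filter and 0 were called, and 4 and 5 of the 14 were at 0 in all Col-0 and in all SOB3-D libraries. The sum of 5 guard cell markers did not overlap between the genotypes, at 2792 to 2824 ppm in Col-0 and 2956 to 3336 ppm in SOB3-D. Most of it was TGG1, with means of 2717 ppm in Col-0 and 2998 ppm in SOB3-D. TGG1 and MYB60 were called higher and 0 lower. FAMA, KAT1 and HT1 were not called, and for KAT1 and HT1 the genotypes overlapped. Seed markers summed to at most 1.01 ppm. The meristem genes STM and KNAT1, the 2 tested of 4, were both called lower in SOB3-D, although for KNAT1 the genotypes overlapped. The 4 summed to 14.2 to 16.2 ppm in Col-0 and 8.65 to 12.8 ppm in SOB3-D. In whole shoots, fewer cells of a type and less RNA per cell cannot be told apart.

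Of the tested genes, 26.4% were called in SOB3-D against Col-0. Among them 2139 genes, or 11.6%, were higher and 2748, or 14.9%, were lower. Libraries of the genotypes did not overlap for 7016 genes, or 37.9%. Most changes were small: the middle 50% of all genes lay between log2 changes of -0.16 and 0.11, with a median of -0.02, and the middle 90% between -0.44 and 0.45. Calls of at least 2-fold were made for 184 higher genes, 0.994% of those tested, and for 86 lower genes, 0.465%. The excess of lower calls depended on the scaling and the tool. With median-of-ratios scaling limma called 2387 genes higher and 2447 lower. On whole reads edgeR called 2336 higher and 2284 lower and DESeq2 1747 and 1685. At 2-fold and over higher calls were more frequent by all 3 tools.

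The balance of directions moved with the size of the change. Under 1.5-fold, 1564 genes were higher and 2320 lower. Between 1.5-fold and 2-fold there were 391 higher and 342 lower genes, and between 2-fold and 4-fold 159 and 72. The higher genes of the 2-fold to 4-fold band had a median level of 4.05 ppm in Col-0 and 11.3 ppm in SOB3-D, and the lower genes of that band 15.7 and 4.73 ppm. Between 4-fold and 8-fold there were 19 and 12 genes, and at 8-fold and over 6 and 2. The count of 2-fold calls depended on the pseudocount: adding 5 in place of 1 left 63 higher and 41 lower genes.

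Called genes were also counted by level. Among 1222 genes with a mean of 100 to 300 ppm, 392 were lower and 184 higher, and among 304 genes of 300 to 1000 ppm 114 were lower and 63 higher. In contrast, at 1000 ppm and over 31 of 106 genes were higher and 20 lower, and 0 of these calls reached 2-fold. Among 2528 genes under 3 ppm, 236 were lower and 204 higher, and these held 42 of the 2-fold higher calls. The median SE of a log2 change was 0.17 under 3 ppm and 0.04 at 1000 ppm and over, so the smallest change that could be called was larger at low level. By chromosome the share called was 24.7% to 28.2% over the 5 nuclear chromosomes.

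**Figure D1:**
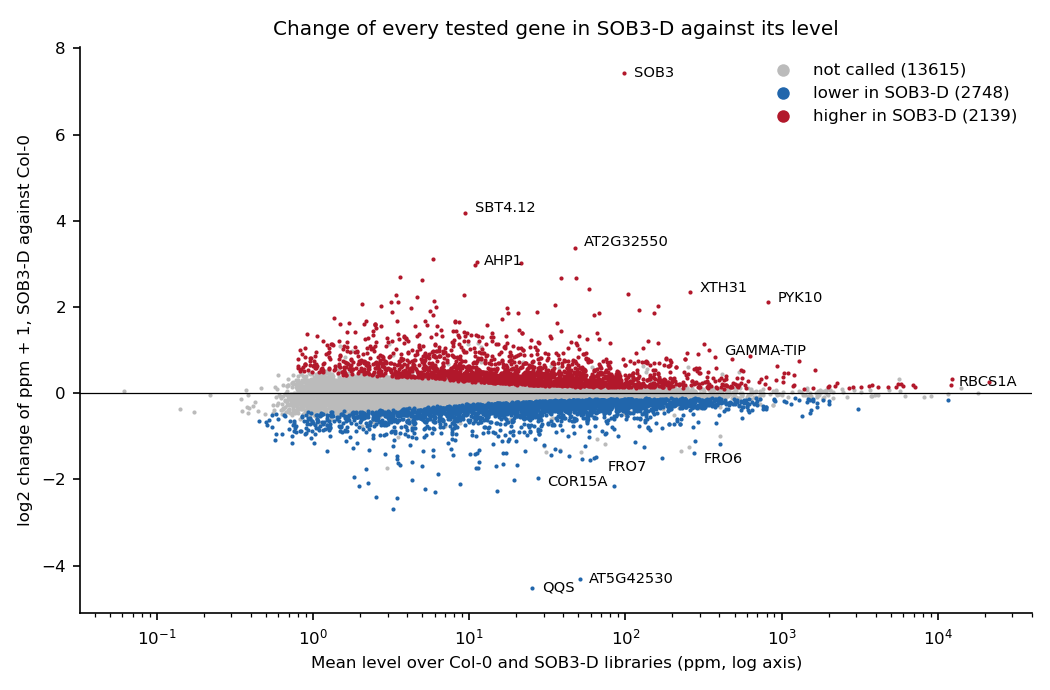
Log2 change of ppm + 1 in SOB3-D against Col-0 (vertical axis) and mean level over the 6 libraries (horizontal log axis, ppm) for each of the 18502 genes tested. Red points are the 2139 genes called higher, blue points the 2748 called lower and grey points the rest. QQS and AT5G42530 are the blue points farthest from 0 and SOB3 the red one.

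SOB3 checked the label of the line. SOB3 (AT1G76500, chromosome 1, 28704963 to 28706691, TAIR10.1) was at 0.124, 0.312 and 0 ppm in the Col-0 libraries and 206, 180.1 and 203 ppm in the SOB3-D libraries. All SOB3-D libraries were far above all Col-0 libraries, with 7 reads of SOB3 in the 3 Col-0 libraries together and 4912 in the 3 SOB3-D libraries. Of 29 AHL genes 20 were tested, of which 3 were higher and 6 lower. Under a filter of 5 ppm, which left fewer genes tested (15075 in all), 1 was higher and 5 were lower. At equal depth or without Col-0 replicate 1, 4 were lower. Besides SOB3, the higher members were AHL1 (1.77 to 5.82 ppm, log2 change 1.304, adjusted p = 2.1e-07) and AT4G22770, annotated as AHL2 (0.85 to 2.6 ppm, 0.96, adjusted p = 0.00022). Among the lower members AHL20 had the largest change (3.65 to 1.85 ppm, -0.69, adjusted p = 0.0061), and its call was lost without Col-0 replicate 1 and with all libraries thinned to equal depth. AT2G33620, annotated as AHL10, fell from 36 ± 2.4 to 27 ± 3 ppm (-0.40, adjusted p = 0.00013). These AHL genes other than SOB3 and AHL20 were named after their values were seen.

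The 12 genes with the largest rises at 10 ppm or more included AHP1 and several genes of unknown role. AHP1 (AT3G21510, chromosome 3, 7577712 to 7579789) codes for a phosphotransfer protein that carries the cytokinin signal from receptors to response regulators. AHP1 was at 1.43, 1.81 and 1.79 ppm in the Col-0 libraries and 22, 16.8 and 21.1 ppm in the SOB3-D libraries. The lowest SOB3-D library was thus many times the highest Col-0 library (AHP1: log2 change 2.96, SE 0.14, adjusted p = 4.5e-16). AT3G44970, a cytochrome P450 gene, was at 15.1, 11.2 and 11.2 ppm in the Col-0 libraries and 91, 90.12 and 71.2 ppm in the SOB3-D libraries. Its rise (AT3G44970: log2 change 2.66, SE 0.12, adjusted p = 3.6e-12) had no overlap between the genotypes. AT1G27030, which codes for an uncharacterized protein, rose from 9.76 ± 1.7 to 67.5 ± 5.7 ppm (log2 change 2.68, SE 0.11, adjusted p = 2.4e-17).

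AT4G23680 and AT4G23670, neighbouring genes of the polyketide cyclase and lipid transport family, both rose. AT4G23680 was at 39.9, 28.7 and 34.7 ppm in the Col-0 libraries and 174, 168 and 174 ppm in the SOB3-D libraries. The SOB3-D libraries agreed closely and lay above a wider spread in Col-0 (AT4G23680: log2 change 2.30, SE 0.16, adjusted p = 5.6e-06). AT4G23670 rose from 957 ± 35 to 1611 ± 22 ppm (log2 change 0.75, SE 0.04, adjusted p = 2.8e-14). JAL33, a jacalin-related lectin gene, rose from 18 ± 4 to 98.4 ± 5.3 ppm (log2 change 2.41, SE 0.12, adjusted p = 1.4e-10), and it lies in a run of changed neighbours described further on. In sob3-6, whose SOB3 transcript was at 227 ± 8.4 ppm, JAL33 was at 3.98 ± 0.22 ppm and AT3G44970 at 3.87 ± 0.086 ppm.

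The 12 genes with the largest falls were of mixed roles. AT1G13650, an uncharacterized gene on chromosome 1, 4680290 to 4682382, was at 140.0, 149 and 125 ppm in the Col-0 libraries and 34.2, 26.1 and 30 ppm in the SOB3-D libraries. AT1G13650 was lower in each SOB3-D library than in any Col-0 library (log2 change -2.16, SE 0.09, adjusted p = 2.2e-09). LUP1, which codes for a lupeol synthase that makes triterpenes, was at 34.8, 28.1 and 32.4 ppm in the Col-0 libraries and 8.38, 7.21 and 5.84 ppm in the SOB3-D libraries. Its 3 SOB3-D libraries were likewise lower (LUP1: log2 change -2.02, SE 0.10, adjusted p = 4.7e-14). AT5G02540, an NAD(P)-binding enzyme gene, fell from 25.4 ± 3.9 to 4.48 ± 0.91 ppm (log2 change -2.27, SE 0.11, adjusted p = 9.5e-16).

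Other large falls were of single genes of metabolism and regulation. AT5G44260, a CCCH zinc finger gene whose SOB3-D libraries ranged widely, was at 11.1, 15.2 and 17 ppm in the Col-0 libraries and 0.916, 3.15 and 4.56 ppm in the SOB3-D libraries. Its SE was large beside those of the other falls named here (AT5G44260: log2 change -2.11, SE 0.36, adjusted p = 0.0025). AT3G23480, a cyclopropane fatty acid synthase gene, fell from 10.4 ± 0.28 to 2.13 ± 0.45 ppm (log2 change -1.88, adjusted p = 1.3e-12), and AT3G55710, a UDP glycosyltransferase gene, fell from 18 ± 3.6 to 4.67 ± 0.32 ppm (-1.73, adjusted p = 2.8e-07). PP2-A13, of the phloem protein 2 family, was at 15.6, 18.6 and 18 ppm in the Col-0 libraries and 4.97, 4.28 and 4.44 ppm in the SOB3-D libraries. It fell by more than its spread (PP2-A13: log2 change -1.72, SE 0.20, adjusted p = 6.2e-05), with 8.99 ± 1.5 ppm in sob3-6.

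**Figure D2:**
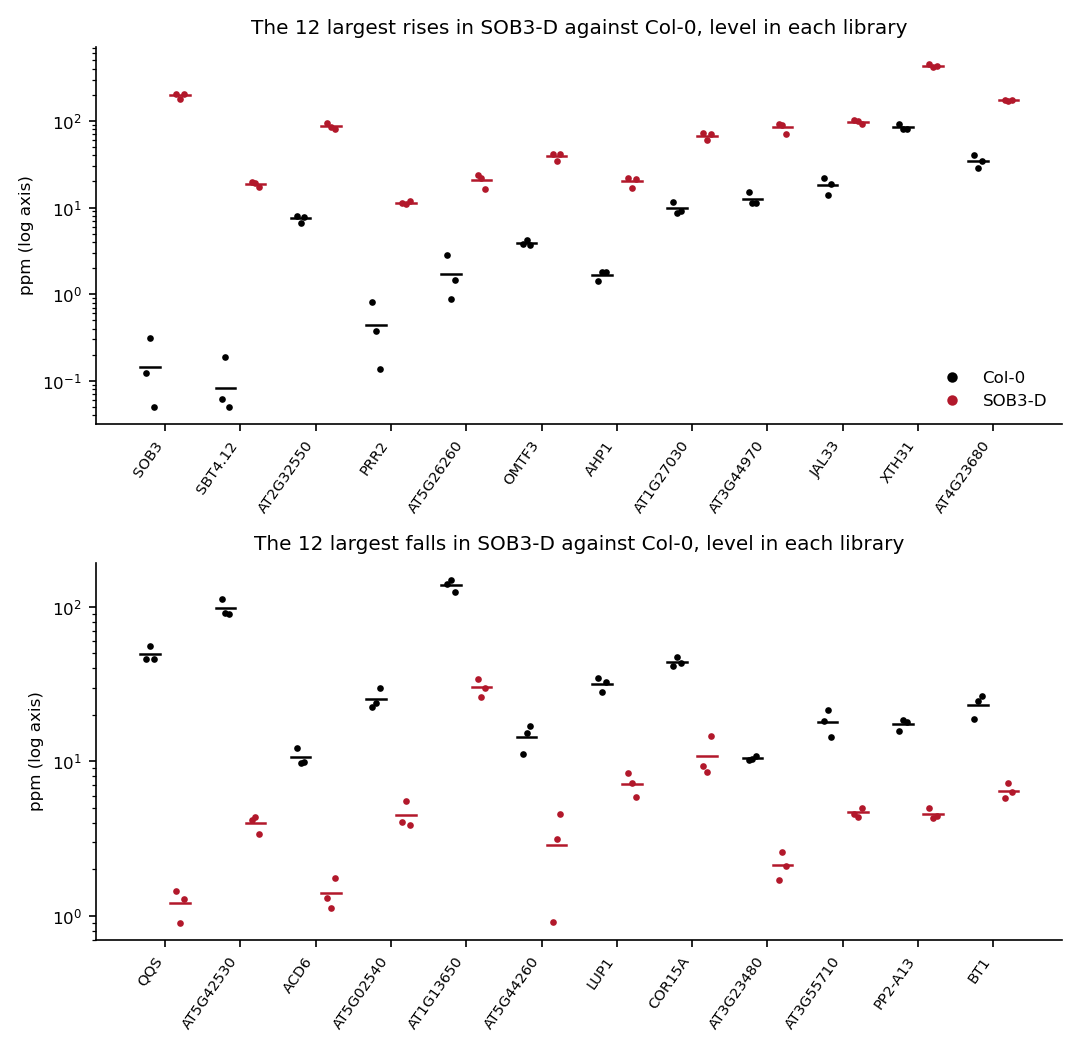
Level in each Col-0 library (black) and SOB3-D library (red) of the 12 genes with the largest rises (upper panel) and the 12 with the largest falls (lower panel) among called genes with at least 10 ppm in the higher genotype, in ppm on log axes. Bars are means of 3 libraries and values of 0 are drawn at 0.05 ppm. The 24 genes were chosen among those whose genotypes do not overlap.

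Among genes with at least 500 ppm in either genotype, the largest rise was that of PYK10, a beta-glucosidase gene whose product fills ER bodies, which rose from 308 ± 39 to 1327 ± 101 ppm (log2 change 2.11, SE 0.11, adjusted p = 4.2e-07). The other rises named at this level were under 2-fold. AT2G25450, which codes for a 2-oxoglutarate and iron dependent oxygenase, rose from 442 ± 8 to 809 ± 37 ppm (log2 change 0.87, SE 0.04, adjusted p = 2.3e-15). AT5G20700, annotated as a senescence-associated family gene, rose from 353 ± 32 to 608 ± 22 ppm (log2 change 0.79, SE 0.07, adjusted p = 8.4e-07). AT4G22485, of the lipid transfer protein superfamily, rose from 731 ± 51 to 1135 ± 206 ppm (log2 change 0.62, adjusted p = 0.0065). PRXR1, a secretory peroxidase gene, rose from 1324 ± 19 to 1929 ± 111 ppm (log2 change 0.54, adjusted p = 1.6e-08).

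In the same range of level, FBA5, an aldolase gene, was at 503, 638 and 545 ppm in the Col-0 libraries and 229.5, 278 and 233 ppm in the SOB3-D libraries. FBA5 was lower in each SOB3-D library than in any Col-0 library (log2 change -1.18, SE 0.10, adjusted p = 1.1e-05). CPN60A, a plastid chaperonin that assists Rubisco folding, fell from 730.2 ± 29 to 558 ± 37 ppm (log2 change -0.39, adjusted p = 9.9e-07). CWLP, a wall to membrane linker gene, fell from 713 ± 26 to 528 ± 45 ppm (log2 change -0.43, adjusted p = 0.00034). The plastid transcript ATCG01130 fell from 1593 ± 302 to 1100.0 ± 69 ppm (log2 change -0.52, adjusted p = 0.013), a call lost when only SOB3-D and Col-0 were fitted.

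Genes closest to no change, among those at 100 ppm or more, were of photosynthesis and housekeeping. UBQ14, a polyubiquitin gene, was at 492, 507 and 509 ppm in the Col-0 libraries and 494, 488 and 521 ppm in the SOB3-D libraries. The genotypes overlapped, and the log2 change of UBQ14 had a 95% interval -0.09 to 0.08. RBCS1A, a Rubisco small subunit gene, had a log2 change with a 95% interval -0.07 to 0.08, and VAR2, a plastid FtsH protease gene, one with a 95% interval -0.09 to 0.08. The genotypes also overlapped for CLA1, of isoprenoid synthesis (95% interval -0.09 to 0.08), CH1, which makes chlorophyll b (95% interval -0.08 to 0.09), and ALDH11A3, an aldehyde dehydrogenase gene (95% interval -0.09 to 0.08). AT3G42050, a vacuolar ATPase subunit gene (95% interval -0.09 to 0.08), and AT4G02480, an AAA ATPase gene (95% interval -0.08 to 0.09), completed the 8.

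Gene groups were then described by counts of called members among those tested, beside 11.6% higher and 14.9% lower among all tested genes, whose median change was -0.02. The 35 lists held 917 entries, of which 898 were in the files. The ER body and myrosinase list had the largest share of higher members among 35 lists (12 of 16), and photorespiration the largest share of lower members (9 of 18). Several lists held few calls: 1 of 19 ER protein folding genes, 3 of 25 chlorophyll synthesis genes and 4 of 21 circadian clock genes were called, the clock genes all lower; by DESeq2 the count of lower clock genes was 2. RVE1, a morning-expressed clock output factor, fell from 43.3 ± 2.2 to 32.8 ± 0.61 ppm (log2 change -0.39, SE 0.07, adjusted p = 5.3e-05), and CDF1, a repressor of flowering genes, from 49.8 ± 2.6 to 42.2 ± 1.9 ppm (-0.23, adjusted p = 0.0042).

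**Figure D3:**
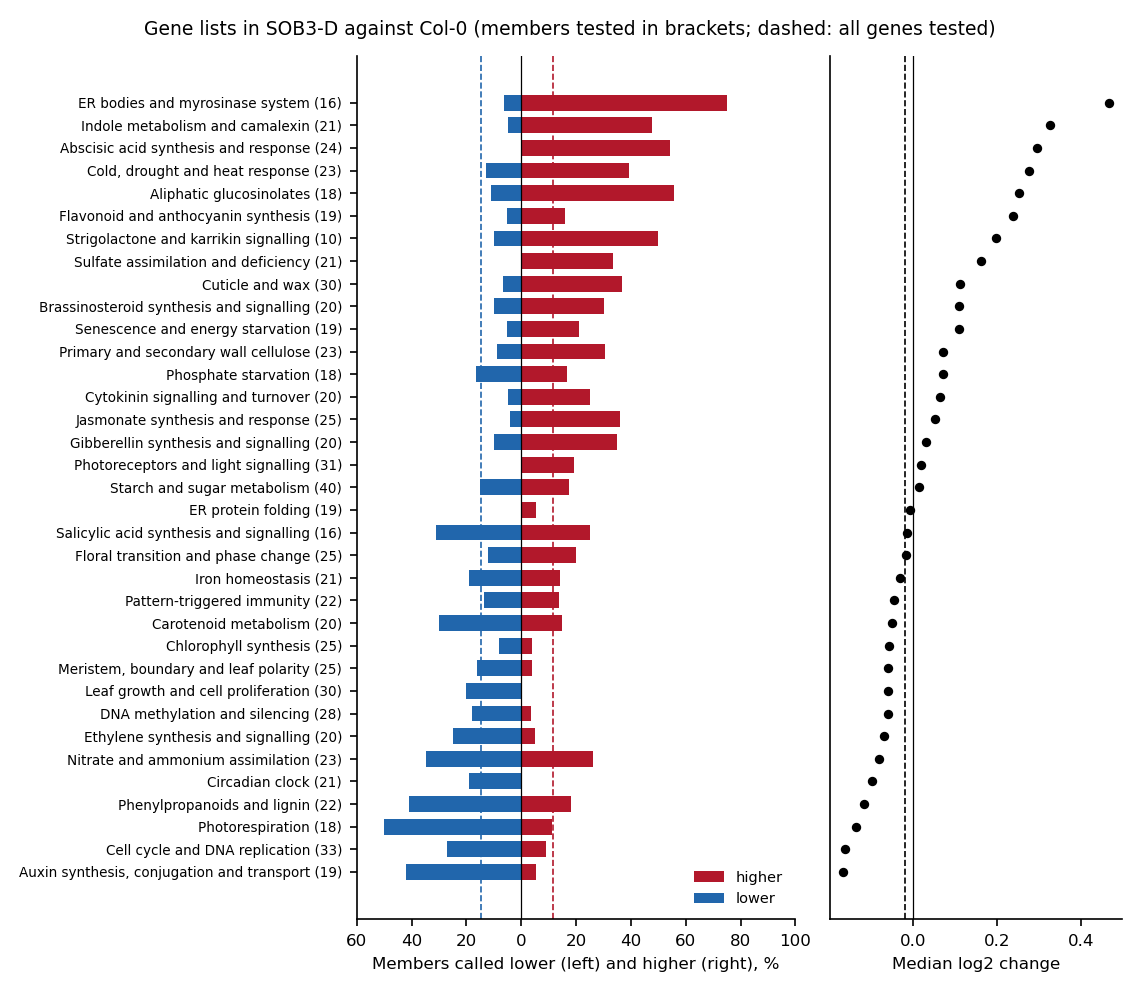
Share of tested members called higher (red, right) and lower (blue, left) in SOB3-D in each of 35 gene lists, in percent, and the median log2 change of their members (dots). Dashed lines give the same for all 18502 genes; lists of defence compounds and abscisic acid stand at the top and auxin transport, cell cycle and photorespiration at the bottom.

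Auxin carriers were among the lower genes. Of 19 tested genes of auxin synthesis, conjugation and transport, 8 were lower and 1 higher, with a median of -0.17. PIN3, an auxin efflux carrier that redirects auxin in bending and shade responses, was at 173, 155 and 164 ppm in the Col-0 libraries and 109.7, 114 and 103 ppm in the SOB3-D libraries. PIN3 was lower in each SOB3-D library than in any Col-0 library (log2 change -0.59, SE 0.05, adjusted p = 1.1e-09). PIN7 fell from 178 ± 9.6 to 126 ± 3.5 ppm (log2 change -0.49, SE 0.05, adjusted p = 4.4e-09) and PIN4 fell from 146 ± 4.3 to 116 ± 3.8 ppm (log2 change -0.33, SE 0.05, adjusted p = 3.5e-06). LAX3, an auxin influx carrier, was the higher member (10.2 to 14.4 ppm, log2 change 0.45, adjusted p = 0.0009). Of 76 SAUR genes 44 were tested, 25 lower and 2 higher, with a median of -0.38. Under a filter of 5 ppm, which left fewer members tested, 15 were lower. The SAUR gene AT2G46690 rose from 20.4 ± 1.9 to 36.9 ± 3.5 ppm (0.82, adjusted p = 5.9e-08). Among 24 Aux/IAA genes, which code for repressors of auxin response, 7 were lower and 4 higher, and the count of higher ones was 2 without SOB3-D replicate 1. AXR3 rose from 40.4 ± 3.3 to 71.3 ± 2.1 ppm (0.81, adjusted p = 1.1e-10) while IAA29 fell from 6.57 ± 2.9 to 2.53 ± 0.5 ppm (-1.05, adjusted p = 0.0011).

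Cytokinin genes had more higher than lower calls. Of 20 tested genes of cytokinin signalling and turnover, 5 were higher and 1 lower, and 3 of the 5 rose at least 2-fold. ARR6, a response regulator that cytokinin induces, was at 7.4, 4.24 and 6.49 ppm in the Col-0 libraries and 20.4, 20.6 and 18.5 ppm in the SOB3-D libraries. ARR6 was higher in each SOB3-D library than in any Col-0 library (log2 change 1.59, SE 0.14, adjusted p = 1.9e-09). RR5, a regulator of the same type, rose from 4.57 ± 0.88 to 12.6 ± 1 ppm (log2 change 1.29, SE 0.14, adjusted p = 3.8e-08). IPT3, which codes for an enzyme of cytokinin synthesis, rose from 10.4 ± 0.82 to 23.5 ± 2.5 ppm (log2 change 1.098, SE 0.10, adjusted p = 7.1e-10). WOL, a cytokinin receptor gene, rose from 16.4 ± 1.2 to 23.1 ± 2.4 ppm (0.47, adjusted p = 0.0018), and CKX4, of cytokinin breakdown, fell from 5.49 ± 0.8 to 3.79 ± 0.71 ppm (-0.44, adjusted p = 0.017). In sob3-6 ARR6 was at 4.73 ± 0.8 ppm, AHP1 at 1.36 ± 0.14 ppm and IPT3 at 8.91 ± 0.75 ppm.

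Higher genes of abscisic acid included receptors, phosphatases and response factors. Of 24 tested, 13 were higher and 0 lower, with a median of 0.29; without SOB3-D replicate 2 or without Col-0 replicate 1, 8 were higher. The sum of guard cell markers, most of it TGG1, was higher as well, as given above. The part of guard cells in this count was not tested. ABF3, a bZIP factor of abscisic acid response, was at 59, 64.2 and 56.2 ppm in the Col-0 libraries and 98.6, 94.6 and 103 ppm in the SOB3-D libraries. ABF3 was higher in each SOB3-D library than in any Col-0 library (log2 change 0.72, SE 0.06, adjusted p = 1.2e-10). RD26, a NAC factor induced by drought, rose from 4.97 ± 0.85 to 12.2 ± 2.3 ppm (log2 change 1.14, SE 0.14, adjusted p = 1.4e-07), and RAB18, a dehydrin gene, from 17.1 ± 1.6 to 28.3 ± 4.3 ppm (log2 change 0.69, SE 0.10, adjusted p = 2.8e-06). HB-7, a homeobox gene induced by abscisic acid, rose from 27.6 ± 3.5 to 58.1 ± 7.7 ppm (log2 change 1.04, adjusted p = 2.9e-06). PYR1, a receptor gene, rose from 43.1 ± 1.3 to 54.9 ± 1.8 ppm (0.34, adjusted p = 4.3e-05), and ABI1, a phosphatase that the receptors inhibit, from 52.6 ± 5.5 to 68.2 ± 2.1 ppm (0.37, adjusted p = 0.00013).

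Other hormone lists were mixed. Of 20 gibberellin genes 7 were higher and 2 lower. GASA6, a gibberellin-regulated gene, fell from 357 ± 25 to 222 ± 0.53 ppm (log2 change -0.68, SE 0.05, adjusted p = 2.9e-11). GA3, an early step of gibberellin synthesis, rose from 25.6 ± 0.58 to 37.8 ± 2.9 ppm (log2 change 0.54, SE 0.07, adjusted p = 6.9e-07). GA3OX1, a gibberellin 3-oxidase gene, rose from 5.42 ± 0.88 to 15.2 ± 1.7 ppm (1.34, adjusted p = 1.9e-09), the only 2-fold call of this list. The DELLA repressor genes moved apart, with RGA1 higher (92.3 to 111 ppm, 0.26, adjusted p = 0.00092) and GAI lower (65.2 to 51.1 ppm, -0.35, adjusted p = 0.00013). Of 20 brassinosteroid genes 6 were higher and 2 lower; BIN2, a kinase that inhibits the pathway, rose from 136 ± 3.2 to 172 ± 8.7 ppm (0.34, adjusted p = 1.9e-05), and BRI1, the receptor gene, fell from 181 ± 4.9 to 152 ± 4.3 ppm (-0.25, adjusted p = 9.0e-05). Of 20 ethylene genes 5 were lower and 1 higher, and 3 were lower by DESeq2. ACS4, of ethylene synthesis, was at 1.68, 1.68 and 3.24 ppm in the Col-0 libraries and 0, 0.676 and 0.117 ppm in the SOB3-D libraries, near the counting floor in SOB3-D (-1.34, adjusted p = 6.1e-06). Of 10 strigolactone and karrikin genes 5 were higher, which became 2 without SOB3-D replicate 2 or Col-0 replicate 3, and 3 without Col-0 replicate 2. KAI2, the karrikin receptor gene, rose from 44.9 ± 2.9 to 62.2 ± 5 ppm (0.46, adjusted p = 4.9e-06).

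Most tested genes of ER bodies and the myrosinase system were higher. ER bodies are compartments of Brassicaceae that store beta-glucosidases, and myrosinases are the enzymes that break glucosinolates down. Of 16 genes of this system 12 were higher and 1 lower, with a median of 0.47. MEB1, an ER body membrane protein gene, was at 10.5, 8.73 and 9.04 ppm in the Col-0 libraries and 25.4, 24.9 and 24.4 ppm in the SOB3-D libraries. MEB1 was higher in each SOB3-D library than in any Col-0 library (log2 change 1.32, SE 0.11, adjusted p = 7.1e-11). NAI2, which is needed for ER bodies to form, rose from 83.9 ± 9.9 to 174 ± 15 ppm (log2 change 1.05, SE 0.10, adjusted p = 2.6e-06), and NAI1, the bHLH gene that switches ER body genes on, from 5.11 ± 0.18 to 8.13 ± 0.18 ppm (0.58, adjusted p = 0.002). TGG2, a myrosinase gene, rose from 882 ± 17 to 1147 ± 52 ppm (log2 change 0.38, SE 0.05, adjusted p = 2.3e-07), and ESP, an epithiospecifier gene, fell from 26.1 ± 0.78 to 19.4 ± 0.77 ppm (-0.42, adjusted p = 9.2e-05). The myrosinase gene TGG1 is also a guard cell marker, and the summed guard cell markers given above were higher in SOB3-D; their part in these counts was not tested.

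Glucosinolate synthesis and sulfur supply were counted apart. Of 18 aliphatic glucosinolate genes 10 were higher and 2 lower, and of 21 genes of indole metabolism and camalexin 10 and 1. BCAT4, the first enzyme of methionine chain elongation, rose from 238 ± 14 to 338 ± 14 ppm (log2 change 0.51, SE 0.05, adjusted p = 5.1e-09), and IMD1, of the same cycle, from 292 ± 11 to 376 ± 5.7 ppm (log2 change 0.37, SE 0.05, adjusted p = 3.6e-07). IMS2, the MAM3 gene of that cycle, rose from 27 ± 3.3 to 98.5 ± 18 ppm (1.82, adjusted p = 5.8e-06). The lower members were CYP79F1 (411 to 339.9 ppm, -0.27, adjusted p = 0.00064) and the regulator MYB29 (82 to 73.6 ppm, -0.15, adjusted p = 0.028). Of 21 genes of sulfate assimilation and deficiency 7 were higher and 0 lower, with a median of 0.16. Under a filter of 5 ppm, which tests fewer genes, 4 were higher. APR1, APS reductase of sulfate reduction, was at 144, 118 and 114 ppm in the Col-0 libraries and 219, 207 and 185 ppm in the SOB3-D libraries. APR1 was higher in each SOB3-D library than in any Col-0 library (log2 change 0.70, SE 0.08, adjusted p = 1.7e-05). BGLU28, a beta-glucosidase gene induced by sulfur deficiency, rose from 4.05 ± 1.3 to 12.4 ± 1.2 ppm (log2 change 1.44, SE 0.18, adjusted p = 1.4e-06), and AKN2, an APS kinase of the route to sulfated glucosinolates, from 105 ± 2 to 136 ± 1.3 ppm (0.36, adjusted p = 1.9e-06).

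The promoter of CYP79B2, which makes indole acetaldoxime and rose from 28.6 ± 3.2 to 106 ± 8.3 ppm, is shown for the word AATATT (capitals), an AT-rich word that was more frequent in promoters of strongly raised genes. It is the 250 bases before the annotated start on the plus strand, chr4:18524792-18525041, from RefSeq (TAIR10.1):
CYP79B2: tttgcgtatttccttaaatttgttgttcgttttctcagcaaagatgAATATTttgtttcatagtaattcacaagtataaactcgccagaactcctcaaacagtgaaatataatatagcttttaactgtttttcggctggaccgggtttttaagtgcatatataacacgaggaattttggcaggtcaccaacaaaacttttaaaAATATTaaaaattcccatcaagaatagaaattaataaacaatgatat

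Of 22 genes of pattern-triggered immunity 3 were higher and 3 lower, close to the shares over all genes. The counts rest on few calls: 1 was higher without Col-0 replicate 2 or at equal depth, 2 were higher when any of the other libraries except SOB3-D replicate 3 was left out, and 6 were lower without SOB3-D replicate 2. FLS2, the receptor of bacterial flagellin, was at 21.2, 27 and 28.2 ppm in the Col-0 libraries and 6.81, 8.22 and 7.48 ppm in the SOB3-D libraries. FLS2 was lower in each SOB3-D library than in any Col-0 library (log2 change -1.63, SE 0.11, adjusted p = 1.0e-10), and FLS2 was at 28.1 ± 4 ppm in sob3-6. EFR, the receptor of bacterial elongation factor Tu, fell from 3.59 ± 0.32 to 1.26 ± 0.47 ppm (log2 change -1.04, SE 0.16, adjusted p = 1.0e-05). RBOHD, the oxidase that makes the reactive oxygen burst, rose from 41.4 ± 2.5 to 52.2 ± 3.2 ppm (log2 change 0.33, SE 0.06, adjusted p = 0.00018). Of 16 salicylic acid genes 4 were higher and 5 lower, a balance that rested on few calls: 2 were higher without Col-0 replicate 1, and 2 higher and 3 lower without SOB3-D replicate 3. PBS3, of salicylic acid synthesis, fell from 6.36 ± 0.44 to 0.153 ± 0.13 ppm, under the counting floor in SOB3-D (-2.68, adjusted p = 9.5e-13), and ACD6, an ankyrin gene of defence, from 10.6 ± 1.3 to 1.4 ± 0.32 ppm (-2.28, adjusted p = 2.6e-05). The receptor gene NPR3 fell from 14.3 ± 0.97 to 9.22 ± 1.4 ppm (-0.59, adjusted p = 2.5e-05), and EDS1, of signalling from intracellular receptors, rose from 22.3 ± 1.1 to 28.5 ± 1 ppm (0.34, adjusted p = 0.00088).

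Families of intracellular and cell-surface receptors were lower more often than higher. Of 60 TIR-NBS-LRR genes 20 were lower and 1 higher, and of 30 CC-NBS-LRR genes 12 were lower and 2 higher, with medians of -0.11 and -0.13. AT4G19050 fell from 4.82 ± 0.29 to 1.74 ± 0.4 ppm (log2 change -1.096, SE 0.15, adjusted p = 1.4e-06) and AT1G17600 from 4.43 ± 0.47 to 2.2 ± 0.7 ppm (log2 change -0.79, SE 0.17, adjusted p = 0.00064). Without SOB3-D replicate 3, 6 CC-NBS-LRR genes were lower, as with DESeq2. Of 23 cysteine-rich receptor-like kinase genes 14 were lower and 4 higher, with a median of -0.34, and without Col-0 replicate 1 8 were lower. CRK41 fell from 3.68 ± 0.21 to 0.873 ± 0.12 ppm (log2 change -1.32, SE 0.16, adjusted p = 1.1e-07), and CRK30 rose from 2.98 ± 0.49 to 10.2 ± 2.9 ppm (log2 change 1.47, SE 0.18, adjusted p = 4.0e-07). WAK1, a kinase that binds wall pectin, fell from 10.7 ± 1.5 to 4.65 ± 0.71 ppm (-1.057, adjusted p = 0.004). Its level in sob3-6 was 28.7 ± 9 ppm. THI2.2, a thionin gene, fell from 49.3 ± 1.8 to 17.6 ± 1.3 ppm (-1.44, adjusted p = 5.4e-15).

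Most tested water channel genes were higher. Of 34 aquaporin genes 25 were tested, 16 higher and 2 lower, with a median of 0.19, and 11 to 16 were higher under the alternatives tried. GAMMA-TIP, a channel of the vacuole membrane, was at 269.9, 259.6 and 272 ppm in the Col-0 libraries and 494, 459 and 479 ppm in the SOB3-D libraries. GAMMA-TIP was higher in each SOB3-D library than in any Col-0 library (log2 change 0.84, SE 0.04, adjusted p = 6.2e-15). PIP2B, a channel of the plasma membrane, was at 129.5, 132 and 139 ppm in the Col-0 libraries and 238, 221 and 238 ppm in the SOB3-D libraries and RD28, a close relative that can share its reads, at 69, 70.1 and 72.4 ppm in the Col-0 libraries and 125, 117 and 128 ppm in the SOB3-D libraries. Both rose, by 0.80 and 0.79 on the log2 scale. NLM1 rose from 0.316 ± 0.27 to 3.06 ± 0.53 ppm (1.64, adjusted p = 3.5e-08), and NIP5;1, a boric acid channel gene, fell from 3.04 ± 0.89 to 1.56 ± 0.61 ppm (-0.67, adjusted p = 0.0049), a call lost without Col-0 replicate 1. GAMMA-TIP, PIP2B and RD28 were named after their values were seen.

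Cellulose and cuticle genes had more higher than lower calls, all of them under 2-fold. Of 23 cellulose genes 7 were higher and 2 lower, and the higher ones were of the primary wall. CESA1, a cellulose synthase of growing walls, was at 315, 326 and 325 ppm in the Col-0 libraries and 390.3, 427 and 409 ppm in the SOB3-D libraries. CESA1 was higher in each SOB3-D library than in any Col-0 library (log2 change 0.34, SE 0.04, adjusted p = 4.5e-07). GH9A1, the endoglucanase that works with the synthase complex, rose from 256 ± 5.7 to 296 ± 14 ppm (0.21, adjusted p = 0.00063), whereas CESA4, a synthase of secondary walls, fell from 26.8 ± 0.63 to 22.6 ± 2.7 ppm (-0.25, adjusted p = 0.034). Of 35 genes for cellulose synthases and their relatives 14 were higher and 2 lower, and CSLE1 rose from 18.6 ± 1.7 to 35.5 ± 2.5 ppm (0.90, adjusted p = 1.3e-09). Of 30 cuticle and wax genes 11 were higher and 2 lower, but 5 were higher without SOB3-D replicate 2 and 7 without Col-0 replicate 3 or with all libraries thinned. ABCG11, an exporter of cuticle lipids, rose from 111 ± 2.8 to 129 ± 4.4 ppm (0.21, adjusted p = 0.00096), and LACS2, of cutin synthesis, fell from 55 ± 0.21 to 44.3 ± 1.1 ppm (-0.31, adjusted p = 8.7e-05).

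Phenylpropanoid genes were mixed, with 9 of 22 lower and 4 higher. Among entry enzymes, PAL1, which turns phenylalanine into cinnamate, was at 176, 177 and 164 ppm in the Col-0 libraries and 131, 126 and 124 ppm in the SOB3-D libraries. PAL1 was lower in each SOB3-D library than in any Col-0 library (log2 change -0.44, SE 0.05, adjusted p = 2.1e-08), and PAL2 (205 to 166 ppm), C4H (166 to 143 ppm) and 4CL1 (185 to 147 ppm) were called lower as well. CCR1, the first step of the lignin branch, rose from 122 ± 2.6 to 177 ± 6.7 ppm (log2 change 0.53, SE 0.05, adjusted p = 4.7e-10), and 4CL2 from 13.9 ± 0.61 to 22.9 ± 2.2 ppm (log2 change 0.68, SE 0.09, adjusted p = 1.5e-06). Of 18 XTH genes, whose enzymes cut and rejoin xyloglucan, 8 were lower and 3 higher. XTH31 had the largest change and rose from 84.8 ± 7.1 to 434 ± 16 ppm (2.34, adjusted p = 6.7e-12), and XTH24 fell from 22.3 ± 2 to 10.2 ± 3.4 ppm (-1.102, adjusted p = 0.0052). Of 18 expansin genes 5 were higher and 3 lower, with EXPA16 at 1.38 to 4.97 ppm (1.22, adjusted p = 0.006) and EXPA5 at 38.6 to 31.7 ppm (-0.28, adjusted p = 0.002).

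Photorespiration recycles the product of Rubisco's reaction with oxygen. Of its 18 tested genes 9 were lower and 2 higher, with a median of -0.14. GLU1, the ferredoxin-dependent glutamate synthase that refixes its ammonium, was at 1841, 1940.0 and 1806 ppm in the Col-0 libraries and 1543, 1503 and 1420.0 ppm in the SOB3-D libraries. GLU1 was lower in each SOB3-D library than in any Col-0 library (log2 change -0.32, SE 0.04, adjusted p = 9.3e-07). CAT2, the peroxisomal catalase, fell from 1759 ± 111 to 1292 ± 119 ppm (log2 change -0.45, SE 0.09, adjusted p = 0.0026), and GLYK, the glycerate kinase of the last step, from 241 ± 4.9 to 205 ± 12 ppm (log2 change -0.23, SE 0.05, adjusted p = 0.00026). AOAT2, an aminotransferase of the pathway, rose from 98.3 ± 6.7 to 126 ± 3 ppm (0.36, adjusted p = 1.0e-05). In sob3-6 it stood at 58.9 ± 4.1 ppm. In contrast, 12 of 19 light-harvesting protein genes were higher and 0 lower, although 4 were higher after quantile normalization. LHB1B2 rose from 10900.0 ± 799 to 13610.0 ± 1123 ppm (0.32, adjusted p = 0.00036).

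Genes of nitrate and ammonium assimilation were mixed, with 6 of 23 tested higher and 8 lower. NIR1, nitrite reductase, was at 275, 265 and 285 ppm in the Col-0 libraries and 189, 183 and 169 ppm in the SOB3-D libraries. NIR1 was lower in each SOB3-D library than in any Col-0 library (log2 change -0.60, SE 0.05, adjusted p = 1.0e-10). NIA2, nitrate reductase, fell from 664 ± 54 to 447 ± 84 ppm (log2 change -0.58, SE 0.13, adjusted p = 0.0099), and BT1, a BTB and TAZ domain gene, from 23.2 ± 4 to 6.43 ± 0.73 ppm (log2 change -1.70, SE 0.14, adjusted p = 2.5e-07). NRT1.1, a nitrate transporter and sensor, rose from 51.8 ± 1.1 to 82.8 ± 2.3 ppm (log2 change 0.67, SE 0.05, adjusted p = 5.5e-11), and so did TGA1, a bZIP factor of nitrate response (14.2 to 27.7 ppm, 0.91, adjusted p = 5.0e-09). LBD38, a repressor of nitrate-responsive genes, also rose (14.9 to 22.6 ppm, 0.56, adjusted p = 5.1e-05).

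Sugar genes showed single large changes in a mixed list, with 7 of 40 higher and 6 lower, a balance that turned without Col-0 replicate 1 (6 and 8) and without Col-0 replicate 3 (4 and 7). SWEET11, a sucrose exporter of phloem loading, was at 111, 105 and 110.5 ppm in the Col-0 libraries and 64.8, 62.5 and 56.4 ppm in the SOB3-D libraries. SWEET11 was lower in each SOB3-D library than in any Col-0 library (log2 change -0.82, SE 0.06, adjusted p = 3.7e-11). DPE2, which processes maltose from starch at night, rose from 167 ± 10 to 253 ± 13 ppm (log2 change 0.60, SE 0.05, adjusted p = 4.2e-10), and TPS5, of the trehalose phosphate family, from 40.7 ± 0.95 to 61.8 ± 1.6 ppm (log2 change 0.59, SE 0.06, adjusted p = 8.1e-09). Of 18 phosphate genes 3 were higher and 3 lower, and PHO2, which limits phosphate loading, rose from 149.9 ± 13 to 235 ± 19 ppm (0.65, adjusted p = 6.6e-05).

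The ferric reductase genes FRO6 and FRO7 had the lowest p-values of the iron list. Ferric reductases of this family turn ferric into ferrous iron, FRO7 in the chloroplast. FRO6 (AT5G49730, chromosome 5, 20201037 to 20204595) and FRO7 (AT5G49740, chromosome 5, 20205302 to 20208777) are neighbours on the minus strand. Their promoters are shown because both genes fell alike and both promoters hold the word CACGTG, the G-box core, in capitals (AATATT is in capitals too). The FRO6 promoter is chr5:20204596-20204845 and the FRO7 promoter chr5:20208778-20209027, minus strand, RefSeq (TAIR10.1):
FRO6: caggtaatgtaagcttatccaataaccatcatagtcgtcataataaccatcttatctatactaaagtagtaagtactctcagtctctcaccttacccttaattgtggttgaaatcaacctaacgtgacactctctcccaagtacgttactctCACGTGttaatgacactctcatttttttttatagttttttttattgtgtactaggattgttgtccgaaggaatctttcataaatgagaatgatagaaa
FRO7: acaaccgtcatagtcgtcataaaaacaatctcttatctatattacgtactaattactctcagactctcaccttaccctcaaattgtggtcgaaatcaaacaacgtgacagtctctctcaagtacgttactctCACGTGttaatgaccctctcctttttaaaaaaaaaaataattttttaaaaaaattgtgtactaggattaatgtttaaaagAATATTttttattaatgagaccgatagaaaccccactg

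The longest run of bases that these promoters share is 29 long and includes CACGTG, which lies 92 bases from the FRO6 start and 112 bases from the FRO7 start. FRO6 was at 382, 429 and 391 ppm in the Col-0 libraries and 153, 165 and 141 ppm in the SOB3-D libraries. FRO7 was at 252, 263 and 243 ppm in the Col-0 libraries and 89.8, 94.6 and 79.6 ppm in the SOB3-D libraries. In both genes every SOB3-D library was below every Col-0 library (FRO6: log2 change -1.39, SE 0.07, adjusted p = 3.5e-11; FRO7: log2 change -1.51, SE 0.07, adjusted p = 3.7e-11). Reads that match both genes may be counted in each. In sob3-6 FRO6 was at 345 ± 12 ppm and FRO7 at 212 ± 18 ppm. Of 21 iron genes 3 were higher and 4 lower, FRO6 and FRO7 included, a balance that turned with DESeq2 and without Col-0 replicate 1. BHLH101, induced by iron deficiency, rose from 0.443 ± 0.2 to 2.21 ± 0.62 ppm (1.145, adjusted p = 5.0e-05), and YSL3, a metal chelate transporter gene, fell from 25.1 ± 2.2 to 20 ± 1.4 ppm (-0.31, adjusted p = 0.0025).

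Most tested genes for ribosomal proteins fell by small amounts. Of 295 such genes, cytosolic and organellar, 281 were tested, of which 180 were lower and 3 higher, and 258 had a change below 0. Their median change was -0.21 and their median level 87.9 ppm in Col-0 and 72.0 ppm in SOB3-D. The count of lower members was 143 to 191 under all 18 alternatives. AT3G17170, an EF1B or ribosomal S6 family gene, was at 94.2, 88.3 and 99.87 ppm in the Col-0 libraries and 58, 63.8 and 60.6 ppm in the SOB3-D libraries. AT3G17170 was lower in each SOB3-D library than in any Col-0 library (log2 change -0.62, SE 0.06, adjusted p = 5.2e-10). Many ribosomal protein genes have near copies, so single values are uncertain where reads match several.

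AT5G02450, an L36e ribosomal protein gene, was at 228, 205 and 207 ppm in the Col-0 libraries and 162, 166 and 162 ppm in the SOB3-D libraries, again with no overlap (log2 change -0.38, SE 0.05, adjusted p = 5.1e-07). It was chosen after its values were seen, as the lower ribosomal protein gene of lowest p whose promoter holds GGCCCA. Its promoter, chr5:532808-533057 on the plus strand (RefSeq, TAIR10.1), is shown with that word and its reverse complement TGGGCC in capitals. The longest capital run holds the word on both strands:
AT5G02450: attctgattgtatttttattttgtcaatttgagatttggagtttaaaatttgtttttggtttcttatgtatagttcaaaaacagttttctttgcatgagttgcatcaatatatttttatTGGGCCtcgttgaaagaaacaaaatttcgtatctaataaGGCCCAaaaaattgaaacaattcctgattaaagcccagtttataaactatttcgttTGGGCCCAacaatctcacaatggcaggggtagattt

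**Figure D4:**
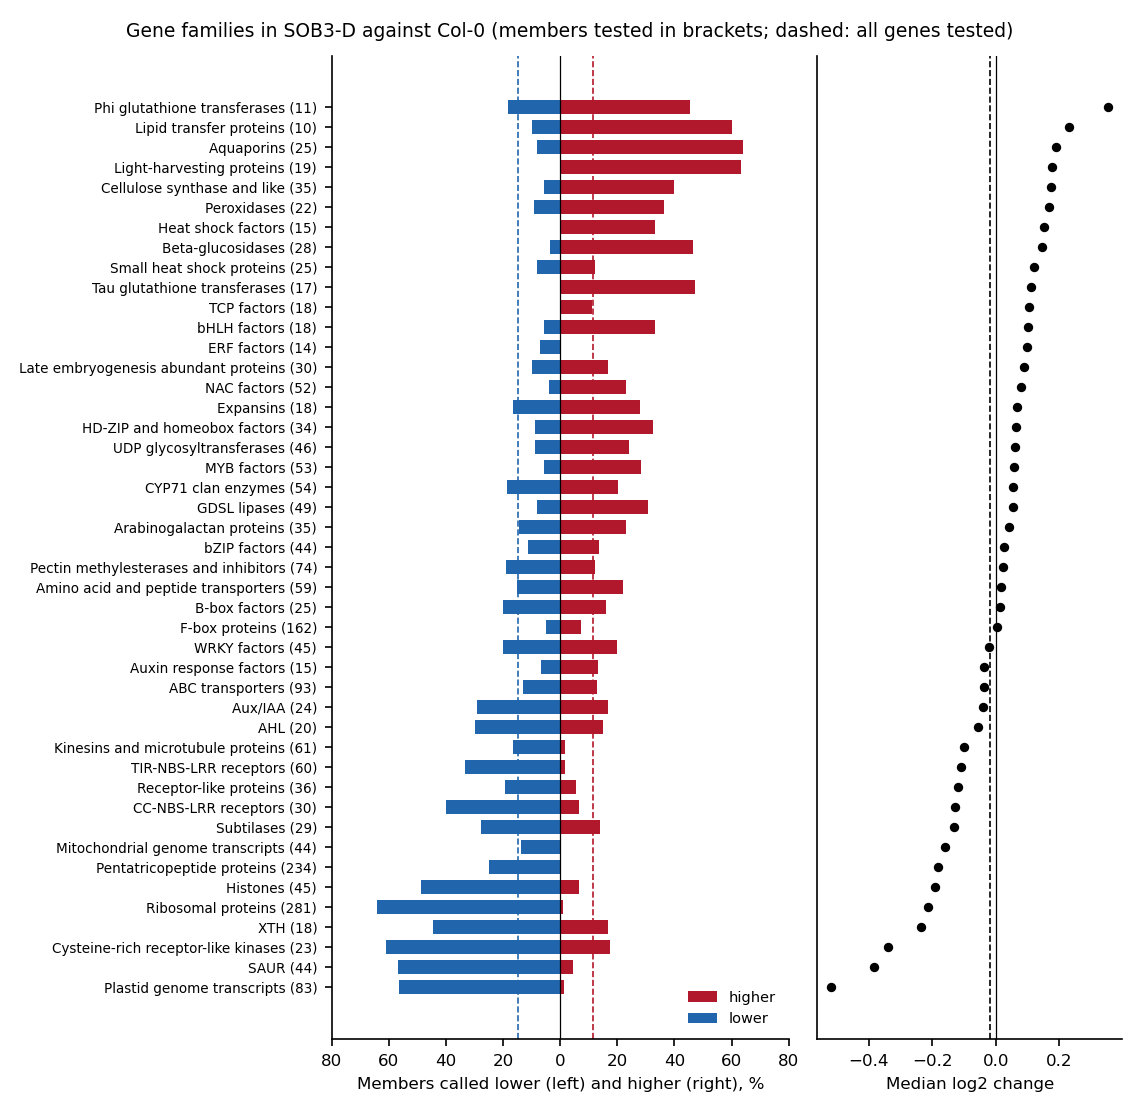
Share of tested members called higher (red, right) and lower (blue, left) in SOB3-D in gene families with at least 10 tested members, in percent, and the median log2 change of each family (dots). Dashed lines give the same for all 18502 genes; aquaporins and light-harvesting proteins are mostly higher, and ribosomal proteins, SAUR genes and plastid genome transcripts mostly lower.

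Histone, replication and methylation genes had more lower than higher calls. Of 45 histone genes 22 were lower and 3 higher, with a median of -0.19, and AT2G37470 fell from 44.5 ± 0.39 to 28.6 ± 2.3 ppm (log2 change -0.62, SE 0.06, adjusted p = 8.4e-09). Of 33 cell cycle and replication genes 9 were lower and 3 higher. RNR1, a ribonucleotide reductase subunit, was at 109.9, 108 and 111 ppm in the Col-0 libraries and 83.5, 83.1 and 87.3 ppm in the SOB3-D libraries. RNR1 was lower in each SOB3-D library than in any Col-0 library (log2 change -0.37, SE 0.05, adjusted p = 8.1e-07). MCM3, of the replicative helicase, fell from 36.4 ± 4.3 to 28.4 ± 0.32 ppm (-0.34, adjusted p = 0.0005). AUR2, annotated as ataurora2, rose from 9.2 ± 0.87 to 21.4 ± 2.7 ppm (1.13, adjusted p = 7.6e-10), the lowest p and the only 2-fold call of this list. SIM, an inhibitor of division in endoreduplicating cells, rose from 6.28 ± 0.46 to 8.62 ± 0.79 ppm (0.40, adjusted p = 0.01). Of 28 genes of DNA methylation and silencing 5 were lower and 1 higher, and 3 were lower by DESeq2. CMT3, a methyltransferase of CHG sites, fell from 48.7 ± 2.4 to 32.6 ± 2 ppm (log2 change -0.56, SE 0.06, adjusted p = 3.1e-08), and MET1, which copies CG methylation after replication, from 85.7 ± 3.9 to 67.6 ± 2.8 ppm (log2 change -0.34, SE 0.05, adjusted p = 1.2e-05). AGO1, the core of microRNA silencing, rose from 179 ± 3 to 206 ± 3.5 ppm (0.21, adjusted p = 0.00063).

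Of 30 genes of leaf growth and proliferation 6 were lower and 0 higher, a count that was 3 without SOB3-D replicate 1 or Col-0 replicate 3. CYCD3;2, a G1 cyclin gene, fell from 75 ± 1.8 to 54.3 ± 2.2 ppm (log2 change -0.46, SE 0.05, adjusted p = 1.2e-07), and GRF2, a growth-regulating factor gene, from 16.9 ± 1.4 to 12.3 ± 0.45 ppm (log2 change -0.42, SE 0.09, adjusted p = 0.00037). Of 25 genes of meristem, boundary and leaf polarity 4 were lower and 1 higher, a balance that did not hold with DESeq2. AFO, a YABBY gene of the lower leaf side, fell from 49.5 ± 3.1 to 38.9 ± 5.2 ppm (-0.35, adjusted p = 0.00087). Of 2 HD-ZIP genes of this list, REV, of the upper side, rose from 37.9 ± 3.2 to 45.8 ± 3.1 ppm (0.27, adjusted p = 0.0028). The other, PHV, fell from 30.3 ± 1.3 to 25.6 ± 1 ppm (-0.23, adjusted p = 0.0067), a call lost with DESeq2. Summed meristem markers were lower as well, as given above, and their part in these counts was not tested.

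Plastid transcripts were mostly lower, and no pentatricopeptide gene was higher. Of 83 plastid genome transcripts tested 47 were lower and 1 higher, with a median of -0.52. ATCG00180 was at 30.7, 25.9 and 25.4 ppm in the Col-0 libraries and 10.5, 14.9 and 11.3 ppm in the SOB3-D libraries. ATCG00180 was lower in each SOB3-D library than in any Col-0 library (log2 change -1.11, SE 0.11, adjusted p = 6.6e-08). ATCG00470, in contrast, rose from 1878 ± 71 to 2116 ± 64 ppm (0.17, adjusted p = 0.0015). The library kit is for mRNA, and most organelle transcripts have no stable poly(A) tail, so these levels are those of the fraction that entered the libraries. Of 44 mitochondrial transcripts 6 were lower and 0 higher, and 2 were lower without SOB3-D replicate 3 or Col-0 replicate 1 and 3 without SOB3-D replicate 1 or at equal depth. Of 234 tested genes for pentatricopeptide proteins, which bind organelle RNA, 58 were lower and 0 higher, with a median of -0.18. That count was 38 at equal depth and 26 by DESeq2 on whole reads. AT1G68930 fell from 1.7 ± 0.13 to 0.481 ± 0.038 ppm (-0.86, adjusted p = 0.00024).

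Heat, cold and senescence genes differed gene by gene. Of 23 genes of cold, drought and heat response 9 were higher and 3 lower. HSP70, a chaperone gene induced by heat, was at 23.5, 16.1 and 18.4 ppm in the Col-0 libraries and 47.9, 47.3 and 48.3 ppm in the SOB3-D libraries. HSP70 was higher in each SOB3-D library than in any Col-0 library (log2 change 1.28, SE 0.09, adjusted p = 1.7e-11). HSFA7A, a heat shock factor gene, rose from 0.551 ± 0.2 to 3.15 ± 0.0072 ppm (log2 change 1.43, SE 0.19, adjusted p = 7.0e-07), and 5 of 15 heat shock factor genes were higher and 0 lower, with 3 higher without Col-0 replicate 1. The cold-induced COR15B fell from 8.82 ± 2.6 to 2.95 ± 0.87 ppm (-1.31, adjusted p = 4.2e-05), while KIN1 (14.3 to 19.6 ppm) and KIN2 (40.6 to 57.9 ppm) were called higher. Among senescence genes NAP, a NAC factor that promotes leaf ageing, fell from 11.3 ± 0.74 to 4.06 ± 0.98 ppm (log2 change -1.29, SE 0.13, adjusted p = 6.3e-09), and NAC6, another NAC factor, rose from 4.15 ± 0.47 to 9.8 ± 1.8 ppm (log2 change 1.058, SE 0.18, adjusted p = 5.8e-05).

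Several families of transcription factors had more higher than lower calls. Of 53 MYB genes 15 were higher (9 by DESeq2) and 3 lower, and of 52 NAC genes 12 and 2. MYB95 was at 7.71, 8.29 and 8.49 ppm in the Col-0 libraries and 34, 32.8 and 30.9 ppm in the SOB3-D libraries. MYB95 was higher in each SOB3-D library than in any Col-0 library (log2 change 1.87, SE 0.09, adjusted p = 2.3e-15). Of 34 homeobox genes 11 were higher and 3 lower, and HB20 rose from 0.742 ± 0.32 to 4.21 ± 0.53 ppm (1.59, adjusted p = 2.6e-08). The family pattern matched 24 bHLH genes, of which 18 were tested. Of these 6 were higher and 1 lower, with 3 higher at equal depth. RAP2.7, an AP2 factor that delays flowering, rose from 101 ± 2.7 to 171 ± 0.37 ppm (log2 change 0.76, SE 0.05, adjusted p = 2.9e-12). PIL5, a phytochrome-interacting factor known as PIF1, rose from 55.5 ± 2.5 to 83.2 ± 3.7 ppm (log2 change 0.57, SE 0.06, adjusted p = 1.1e-08), and PHYA, phytochrome A, from 89.7 ± 5 to 116 ± 3.1 ppm (0.37, adjusted p = 2.4e-05). B-box genes were mixed, with 4 of 25 higher and 5 lower. That balance did not hold under most of the 18 alternatives, edgeR, DESeq2 and equal depth among them. BBX21, a B-box factor that promotes light responses, rose from 35.1 ± 1.1 to 63.9 ± 4.7 ppm (0.84, adjusted p = 4.1e-10). COL9, of the same family, fell from 2.28 ± 0.47 to 0.762 ± 0.26 ppm (-0.90, adjusted p = 7.7e-05).

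Glutathione and sugar conjugating enzymes had more higher than lower calls. Of 17 tau glutathione transferase genes 8 were higher and 0 lower, and GSTU1 rose from 2.05 ± 0.74 to 9.59 ± 0.69 ppm (log2 change 1.82, SE 0.17, adjusted p = 1.7e-09). Of 11 phi class genes 5 were higher and 2 lower, with 3 higher without Col-0 replicate 2; GSTF2 fell from 42.2 ± 1.5 to 18 ± 2.2 ppm (log2 change -1.19, SE 0.14, adjusted p = 3.9e-05). Of 46 UDP glycosyltransferase genes 11 were higher and 4 lower. Among 54 cytochrome P450 genes of the CYP71 clan, 11 were higher and 10 lower, and under a filter of 5 ppm, which tests fewer genes, 9 and 4. Of these genes CYP71B24 fell from 9.27 ± 1.8 to 1.19 ± 0.15 ppm (log2 change -2.21, SE 0.13, adjusted p = 5.1e-14). ABCG35, a pleiotropic drug resistance transporter gene, rose from 1.77 ± 0.3 to 9.41 ± 0.4 ppm (log2 change 1.91, SE 0.14, adjusted p = 1.8e-11). BGLU33, a beta-glucosidase gene, fell from 78.5 ± 3.4 to 26.7 ± 1.9 ppm (log2 change -1.52, SE 0.06, adjusted p = 7.4e-18), although 13 of 28 beta-glucosidase genes were higher and 1 lower; 8 were higher without Col-0 replicate 3.

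Runs of at least 4 neighbouring tested genes that changed at least 1.5-fold the same way were found at 2 places, both higher. Loci that did not pass the filter were passed over and did not break a run. On chromosome 3, 5562400 to 5599224, 8 genes rose, with a median of 1.05. They were NSP3, NSP1 and NSP4, whose products steer glucosinolate breakdown to nitriles, PBP1, whose product binds PYK10, the lectin genes JAL31, JAL33 and JAL34, and JR1. NSP1 was at 183, 152 and 171 ppm in the Col-0 libraries and 325, 332 and 313 ppm in the SOB3-D libraries. NSP1 was higher in each SOB3-D library than in any Col-0 library (log2 change 0.94, SE 0.07, adjusted p = 2.7e-09). JAL31 rose from 7.11 ± 0.49 to 28.3 ± 2.5 ppm (log2 change 1.85, SE 0.11, adjusted p = 1.4e-13) and PBP1 from 198 ± 19 to 439 ± 35 ppm (log2 change 1.151, SE 0.10, adjusted p = 9.2e-06). In sob3-6 NSP1 was at 130.5 ± 8.5 ppm, JAL31 at 1.87 ± 0.32 ppm, PBP1 at 61.1 ± 5.8 ppm and JR1 at 120.2 ± 6.1 ppm. Near-identical lectin genes can share reads, which was not tested as a source of the run.

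The other run, on chromosome 5 from 9200271 to 9231180, held 5 genes, AT5G26260 to AT5G26300, with a median of 1.09. AT5G26280 was at 13.4, 12 and 13.7 ppm in the Col-0 libraries and 62.1, 62.2 and 48.5 ppm in the SOB3-D libraries. AT5G26280 was higher in each SOB3-D library than in any Col-0 library (log2 change 2.06, SE 0.16, adjusted p = 3.6e-07). AT5G26270, AT5G26290 and AT5G26300 were at or under 1 ppm in Col-0, so that their values rest on few reads. Such genes can pass the filter through their SOB3-D libraries, which favours rises among them. Without these genes the run would be shorter than the minimum length, so its length and median depend on the filter. The other run members were named after their values were seen.

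**Figure D5:**
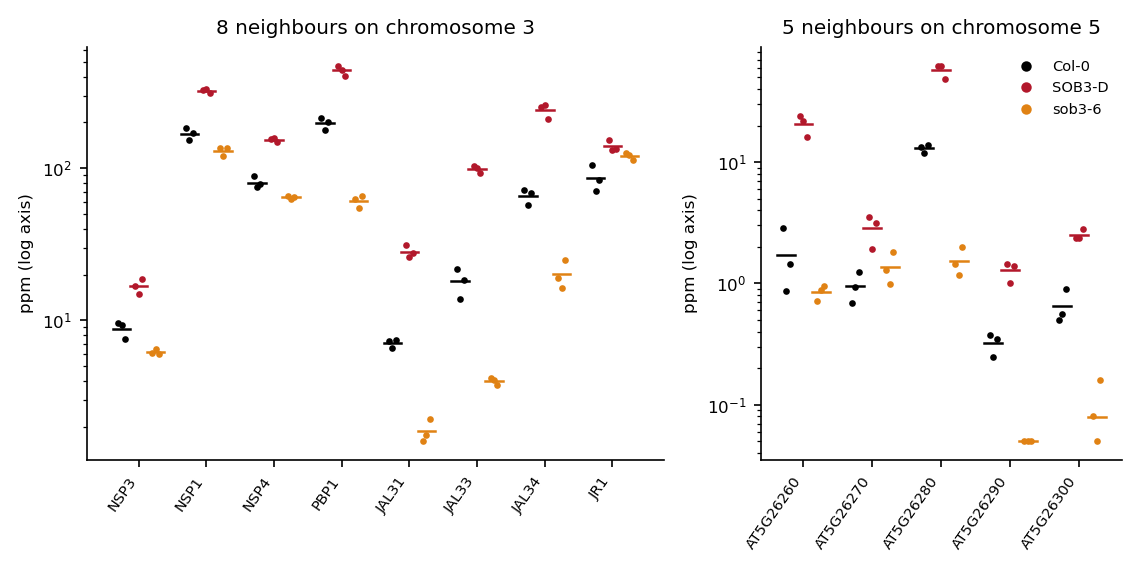
Level in each library of the 8 neighbouring tested genes on chromosome 3 (left) and the 5 on chromosome 5 (right). Levels are in ppm on log axes, for Col-0 (black), SOB3-D (red) and sob3-6 (orange), and untested loci in between are left out. Bars are means of 3 libraries and values of 0 are drawn at 0.05 ppm; SOB3-D libraries are above Col-0 libraries in all 13 genes, and sob3-6 libraries are below Col-0 libraries in most.

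Promoters of 250 bases were searched on both strands for 4 words, and the share that held each was described. GGCCCA, a word of TCP binding sites and of ribosomal protein promoters, was in 17.3% of all 18299 promoters of tested genes, in 47.7% of the 281 ribosomal protein promoters, in 23.1% of called lower genes and in 9.13% of called higher genes. With ribosomal protein genes left out, it was in 20.3% of called lower genes. Of genes at least 2-fold higher 5.98% held GGCCCA, and of those at least 2-fold lower 3.57% (3 of 84), both under the share over all. AATATT was in 30.1% of all promoters and in 41.3% of those of genes at least 2-fold higher. Their median A+T content was 70.8%, against 68.4% over all and 67.8% in genes at least 2-fold lower, and the part of base composition in the AATATT share was not tested. CACGTG was in 7.30% of all, 7.07% of the strongly higher and 10.7% (9 of 84) of the strongly lower promoters. TGTCTC, a core of auxin response elements, was in 10.5%, 12.5% and 10.7% of the same. Among all called genes CACGTG was in 7.62% of the higher and 6.03% of the lower, and TGTCTC in 10.1% and 11.1%. AATATT was in 35.2% of all called higher and 28.5% of all called lower genes, and in 29.8% of the strongly lower ones. A word in a promoter is no evidence of a bound factor.

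SOB3-D was last set beside sob3-6, which had a like level of SOB3 transcript. Of the tested genes 35.7%, or 6607, were called between these lines, in a contrast that does not use Col-0. SOB3 itself was not called (log2 difference -0.21, SE 0.10, adjusted p = 0.11). AT2G32550, a Rcd1-like gene, was at 7.5 to 87.4 ppm from Col-0 to SOB3-D and at 1.44 ± 0.21 ppm in sob3-6 (log2 difference 5.18, SE 0.11, adjusted p = 3.9e-25). JAL33 and AT3G44970, given above, likewise had their lowest means of the 3 genotypes in sob3-6 (JAL33: log2 difference 4.32, SE 0.12, adjusted p = 2.6e-14). AHP1 was higher in SOB3-D than in sob3-6 (log2 difference 3.15, SE 0.14, adjusted p = 5.6e-17), as was ARR6 (log2 difference 1.87, SE 0.14, adjusted p = 6.0e-11), and FRO7 was lower (log2 difference -1.26, SE 0.07, adjusted p = 3.0e-10). For FBA5 the difference between the lines was not called (log2 difference -0.06, SE 0.10, adjusted p = 0.66), with 257 ± 19 ppm in sob3-6, and for CAT2 it was not called either (log2 difference 0.11, SE 0.09, adjusted p = 0.37).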

How the data were processed

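The 12 libraries came from a strand-keeping mRNA kit (KAPA), as the labels' protocols state, and bcl2fastq and Bowtie 1.2.1 with TAIR10 are named in the submitters' processing notes. The settings for strand and for multiply matching reads are not stated there. The authors deposited a signal per transcript, in ppm of reads (their sum over transcripts exceeds the ppm scale, as a read can count for several transcripts), and 100% of values in each library were whole reads within 0.01 of a read. Here each of 32950 transcripts was tested if at least 1 ppm in 3 of 12 libraries. Then limma 3.58.1 (R 4.3.3) was fitted to log2(ppm + 1) over all 4 genotypes, 3 libraries each, which share 1 spread, with adjusted p over all 25710 transcripts kept and calls at 0.05. Results are given for 1 transcript per locus. The code was tested on simulated data.

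SOB3-D and Col-0 libraries with the same replicate number had correlations of their deviations of 0.0266, -0.0576 and 0.111. Libraries of unlike number had -0.106 to 0.076. So few and weak values cannot decide whether the numbers pair the samples, and the main fit did not pair them. Alternatives were other pseudocounts, filters and scalings, 1 transcript per locus, only the 2 genotypes, a replicate block, leaving out each replicate, edgeR 4.0.16 and DESeq2 1.42.0 on whole reads, and thinning all libraries to equal depth, the last chosen after seeing the data. The comparison, its 35 gene lists and its 50 families were chosen with earlier results of these data known, and the family patterns were corrected after counts had been seen. Named genes were SOB3, the 12 largest changes each way among called genes at 10 ppm or more without overlap, the 6 largest each way at 500 ppm or more, the 3 of lowest p per list, the largest each way per family and the 8 nearest to 0 at 100 ppm or more; other genes of lists, families and runs were named after their values were seen. Promoters are the 250 bases before the annotated start in RefSeq's TAIR10.1.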

Additional observations from a re-analysis of the deposited data

How the results depend on the processing

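Under all alternatives tried, 0 genes called in 1 direction were called in the other. The count of higher genes was 2139, and 1739 to 1988 with 1 replicate left out; that of lower genes was 2748, and 2086 to 2548 with 1 left out. DESeq2 on whole reads called 1685 lower genes. Counts of changes of at least 2-fold moved most. With a pseudocount of 5 there were 63 higher and 41 lower, and with 0.25 there were 188 lower. On whole reads edgeR called 2336 higher and 2284 lower genes, 336 and 200 of them at 2-fold, and DESeq2 314 and 181. With 1 replicate left out they were 180 to 194 and 92 to 112. The cause of these shifts was not tested. The replicate block gave 2333 higher and 3000 lower genes, and 11 in place of 6 lower genes of starch and sugar metabolism. At equal depth 1751 were higher and 2129 lower, 193 and 91 of them by at least 2-fold. The share of higher genes among all called was 43.8%, and 42.6% to 50.9% under the alternatives. Of 214 called named genes 189 stayed called under all 18 alternatives and 25 lost the call under at least 1. Of the bands of level, genes under 3 ppm had the largest median SE, at 0.17, and the part of depth in it was not tested.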
